A study of Mus musculus with 6 samples.

Results

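The genes for YAP (Yap1) and TAZ (Wwtr1), for the 4 TEAD factors (Tead1 to Tead4) and for 4 canonical direct targets (Ccn1, Ccn2, Ankrd1 and Amotl2) were examined in bone marrow-derived macrophages (BMDM) with and without Ppp2ca, which encodes the alpha isoform of the catalytic subunit of protein phosphatase 2A. These 10 genes were chosen by symbol as the transcriptional end of the Hippo pathway from 55453 genes in the count table, and all 10 were found there. Each genotype, PP2Ac KO and PP2Ac WT (WT below), gave 3 RNA-Seq libraries. The labels give the strain of both groups as C57BL/6 and the genotypes as PP2A KO and wild type. The PP2Ac KO mice were LysMcre PP2Ac fl/fl, in which cre under the Lysozyme 2 promoter deletes exon 1 of Ppp2ca in the myeloid lineage. The WT mice came from a commercial breeder, so cre, the floxed alleles and the colony differed between the groups together and cannot be told apart. The in vivo methods of the study give its mice as male and female and 6 to 10 weeks old. The sex and age of the marrow donors behind a library are not labelled. Marrow was grown into macrophages with M-CSF or with medium conditioned by L929 fibroblasts, and the labels do not say which. The labels name no treatment either, and all 6 libraries were taken as stimulated with cGAMP, a cyclic dinucleotide that activates the sensor STING, because the RNA-Seq of the study is described so. No unstimulated library was analysed here. The study describes its cell experiments as done in biological triplicate, but no source used here says whether the 3 samples of a group came from separate mice or cultures. The p-values below measure the spread between these samples, which may be in part technical.

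YAP and TAZ are transcriptional coactivators with no DNA-binding domain of their own, and they reach DNA through TEAD factors. When the Hippo kinases MST and LATS are active, YAP and TAZ are phosphorylated, kept in the cytoplasm and degraded, and genes such as Ccn1 and Ccn2 are transcribed less. Both coactivators are best known in epithelial, fibroblastic and other adherent cells and are scarce in most blood lineages, and TEAD-bound sites typically carry the so-called MCAT letters. RNA-Seq measures the mRNA of these genes and not the phosphorylation, the location or the amount of their proteins.

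Between 35257156 and 47390899 reads per library were counted on genes. Reads on Ppp2ca numbered 33 to 47 in PP2Ac KO and 8279 to 10654 in WT libraries, matching the labels. Macrophage markers were abundant in every library, with a summed level of 6162 to 7474 CPM (counts per 1000000 reads, with library sizes scaled by the TMM method) over Adgre1, Csf1r, Itgam, Cd68, Fcgr1 and Mertk. Of these 6, Fcgr1 and Mertk were higher in PP2Ac KO (log2 fold changes 0.70 and 0.27) and the other 4 did not pass the test. Among all genes tested, 18.1% were higher and 19.0% lower. Mertk did not pass with upper-quartile scaling (adjusted p = 0.0671 from edgeR), and Csf1r passed once replicate number was entered as a block (adjusted p = 0.00280 from edgeR). A count of 3 reads was taken as the floor of detection, which equals 0.0604 to 0.0909 CPM depending on the library and covers counting error only.

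Of the 10 genes, 7 had enough reads to be tested (Yap1, Wwtr1, Tead1, Tead3, Ccn1, Ccn2 and Amotl2), and 4 of them fell in PP2Ac KO at a false discovery rate (FDR) under 0.05. The 4 were Yap1, Tead1, Ccn1 and Ccn2, and each was left at between 23.7% and 35.4% of its WT level. None of the 7 was higher. Across all 13680 genes tested, 19.0% were lower at this FDR and 18.1% were higher. The same 4 genes also passed the stricter thresholds of FDR under 0.01 and a log2 fold change below -1, which 2.99% of all genes tested passed. Their PP2Ac KO libraries all lay under their WT libraries, which held for 26.8% of all genes tested. The median log2 fold change of the 7 genes was -1.50, against -0.02 over all genes tested. These counts and the median cover only the 7 genes that passed the filter on low counts. Tead3, with 3, 3 and 17 reads in PP2Ac KO and 14, 16 and 21 in WT, passed that filter through its WT libraries. The counts and the median include Tead3, which limits their comparison with all genes tested. In bulk RNA, fewer cells of one kind and less RNA per cell cannot be told apart, and this applies to each of the decreases.

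**Figure D1:**
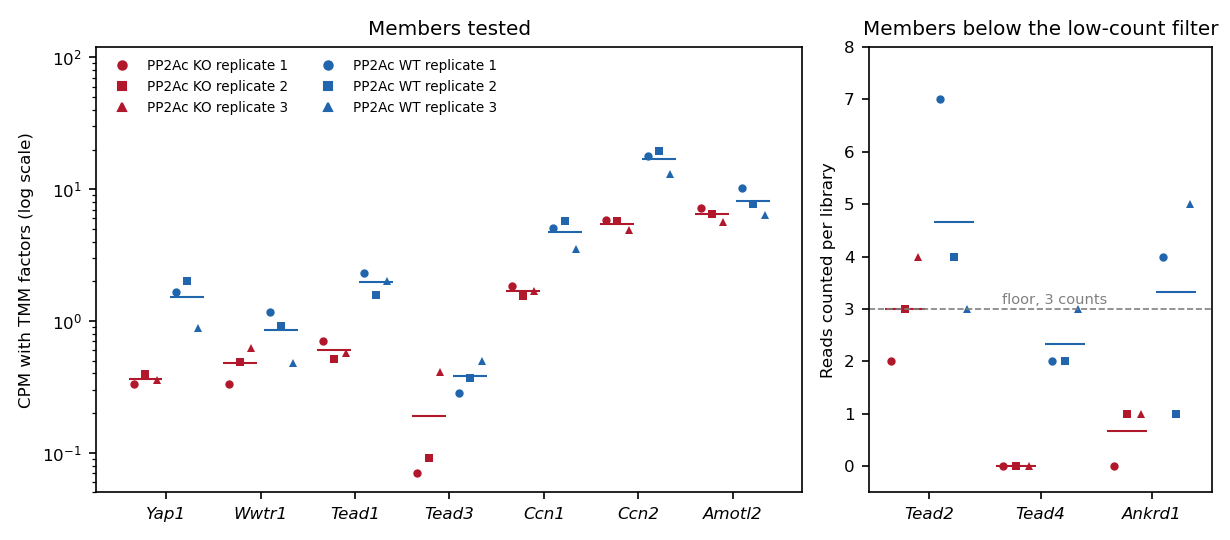
Level of each of the 10 genes in every library, as CPM on a log scale for the 7 genes tested and as reads on a linear scale for the 3 genes below the filter. Points are libraries, short lines are group means (n = 3), and the dashed line is the floor of 3 reads. Yap1, Tead1, Ccn1 and Ccn2 do not overlap between the genotypes, and Wwtr1, Tead3 and Amotl2 do.

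Yap1, the gene of the coactivator YAP, spans 7931999 to 8004596 of chromosome 9 (GRCm38, the build of the files, reverse strand). It had 14, 13 and 15 reads in PP2Ac KO replicates 1, 2 and 3, and 83, 87 and 37 reads in the WT replicates. The PP2Ac KO libraries were alike and low, and WT replicate 3 lay well under the other two WT libraries while staying above all PP2Ac KO libraries. Yap1 fell from 1.52 ± 0.574 to 0.361 ± 0.0319 CPM (SD, n = 3), and its log2 fold change was -2.08 (95% interval -2.84 to -1.31, adjusted p = 0.00142 from the quasi-likelihood test of edgeR). Even in WT, no library held more than 87 reads of this gene.

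Wwtr1, the gene of TAZ, spans 57455649 to 57575910 of chromosome 3 (reverse strand). It had 14, 16 and 26 reads in PP2Ac KO and 58, 40 and 20 reads in WT. The groups overlapped, because PP2Ac KO replicate 3 held more reads than WT replicate 3. The levels were 0.479 ± 0.147 CPM in PP2Ac KO and 0.855 ± 0.350 CPM in WT (SD, n = 3), with a log2 fold change of -0.85 (95% interval -1.68 to -0.02) that did not pass the test (adjusted p = 0.102 from edgeR). Leaving out 1 library changed this call, and without WT replicate 3 the log2 fold change was -1.12 and Wwtr1 passed (adjusted p = 0.0196 from edgeR). The decrease of Yap1 kept its call without that library, at -2.34 (adjusted p = 1.34e-04 from edgeR).

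The TEAD genes encode the DNA-binding partners of both coactivators. Tead1 (chromosome 7, 112679318 to 112906807, forward strand) was the only TEAD gene with more than 21 reads in any library. It had 30, 17 and 24 reads in PP2Ac KO and 115, 68 and 85 reads in WT. Every PP2Ac KO library lay far under every WT library. Tead1 fell from 1.97 ± 0.379 to 0.599 ± 0.0983 CPM (SD, n = 3), and its log2 fold change was -1.70 (95% interval -2.21 to -1.20, adjusted p = 4.84e-04 from edgeR).

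Tead3 (chromosome 17, 28331671 to 28350817, reverse strand) had 3, 3 and 17 reads in PP2Ac KO and 14, 16 and 21 reads in WT. Replicate 3 of PP2Ac KO stood apart from the other PP2Ac KO libraries, which were at the floor, and reached the WT range. The levels were 0.0707 to 0.407 CPM against 0.282 to 0.501 CPM in WT. The log2 fold change was -0.95 (95% interval -2.22 to 0.32, adjusted p = 0.220 from edgeR). Without that library it was -2.21 and passed (adjusted p = 0.0140 from edgeR), so that the call for Tead3 depended on 1 library.

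Tead2 and Tead4 were not tested, as too few reads were counted. Tead2 (chromosome 7, 45215753 to 45233644, forward strand) had 2, 3 and 4 reads in PP2Ac KO and 7, 4 and 3 reads in WT. Its summed reads, 9 and 14, gave a ratio of PP2Ac KO to WT of 0.741 after scaling by library size (exact 95% counting interval 0.283 to 1.84). An exact permutation test of its CPM gave p = 0.5 (two-sided, 3 against 3, where the smallest possible p is 0.1). Tead4 (chromosome 6, 128224288 to 128300823, reverse strand) had 0 reads in each PP2Ac KO library and 2, 2 and 3 in the WT libraries. Both groups were at or under the floor, so that no fold is given. The exact 95% counting interval of the ratio of its summed reads, 0 and 7, was 0 to 0.800 and did not include 1. The libraries did not overlap, and the exact permutation test of its CPM gave the smallest possible p of 0.1. With every gene that had a read entered in the fit, edgeR's adjusted p was 0.763 for Tead2 and 0.0975 for Tead4. Neither gene passed in that fit, and a difference in Tead2 was not detectable at this depth.

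The reference promoter sequences of the 3 direct targets found in the promoter table are shown because they carry the letters that TEAD factors recognize. They are the 250 bases before the start annotated by RefSeq on GRCm38.p6. The letters GGAATG, or CATTCC where the site lies on the other strand, are in capitals. The gene spans in this report come from GENCODE, whose starts can differ. The Amotl2 and Ankrd1 sequences lie inside those spans. The Ccn1 promoter is chr3:145649986-145650235 (reverse strand), that of Amotl2 is chr9:102717554-102717803 (forward strand), and that of Ankrd1 is chr19:36119845-36120094 (reverse strand). The Yap1 promoter, chr9:8004597-8004846 (reverse strand), is shown with them, since the gene of the coactivator holds the same letters.
Ccn1: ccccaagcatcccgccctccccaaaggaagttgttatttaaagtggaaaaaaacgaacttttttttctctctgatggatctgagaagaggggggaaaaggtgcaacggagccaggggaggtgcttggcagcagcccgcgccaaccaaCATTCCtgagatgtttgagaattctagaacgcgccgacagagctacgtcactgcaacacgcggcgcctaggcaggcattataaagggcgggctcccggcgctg
Amotl2: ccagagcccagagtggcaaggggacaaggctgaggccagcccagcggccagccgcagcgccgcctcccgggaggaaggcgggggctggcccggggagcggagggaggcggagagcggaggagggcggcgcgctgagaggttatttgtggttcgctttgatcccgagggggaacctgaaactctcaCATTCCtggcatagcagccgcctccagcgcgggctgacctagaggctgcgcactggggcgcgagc
Ankrd1: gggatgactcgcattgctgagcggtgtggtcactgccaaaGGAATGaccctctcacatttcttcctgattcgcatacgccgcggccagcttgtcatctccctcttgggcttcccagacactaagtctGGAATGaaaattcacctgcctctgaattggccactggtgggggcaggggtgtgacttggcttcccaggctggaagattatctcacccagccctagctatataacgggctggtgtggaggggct
Yap1: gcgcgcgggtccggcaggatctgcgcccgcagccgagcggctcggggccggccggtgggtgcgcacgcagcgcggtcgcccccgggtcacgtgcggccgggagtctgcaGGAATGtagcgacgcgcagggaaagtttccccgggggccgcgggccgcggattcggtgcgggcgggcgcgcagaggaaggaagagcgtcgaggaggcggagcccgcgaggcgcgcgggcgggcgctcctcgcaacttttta

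Distances were counted from the RefSeq start to the first letter of each match. The match lay 103 bases upstream in Ccn1, 65 in Amotl2 and 141 in Yap1, and in Ankrd1 there were 2 matches at 210 and 123 bases. Promoters were given for 7 of the 10 genes, and 6 of the 7 (all but Tead2) held the letters on either strand in at least 1 promoter. Of all 32851 promoters of this length in the table, 12.6% held them, and of all genes with a promoter 14.4% did. Wwtr1 and Tead3 have several promoters in the table, which gives them more chances of a match. Of 12 further YAP/TAZ target genes with a promoter, 3 held the letters. Matches were present both in Ccn1 and Yap1, which fell, and in Amotl2, which did not pass the test. A match describes the letters of the reference and says nothing about binding in these cells.

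Ccn2, which encodes the secreted matricellular protein CTGF and is the target most often used as a readout of YAP activity, was the most abundant of the 10 transcripts per length. It spans 24595442 to 24598683 of chromosome 10 (forward strand) and had 247, 189 and 205 reads in PP2Ac KO and 890, 852 and 544 reads in WT. The lowest WT library, replicate 3, was far above the highest PP2Ac KO library. Its level fell from 16.8 ± 3.44 to 5.49 ± 0.500 CPM (SD, n = 3), which left 32.6% (95% interval 25.6% to 41.4%) of the WT level (log2 fold change -1.62, adjusted p = 1.22e-04 from edgeR).

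Ccn1, which encodes the related protein CYR61, spans 145646976 to 145649981 of chromosome 3 (reverse strand). It had 78, 51 and 70 reads in PP2Ac KO and 253, 249 and 147 reads in WT. As for Ccn2, WT replicate 3 was the lowest of its group and was still above all PP2Ac KO libraries. Ccn1 fell from 4.77 ± 1.14 to 1.69 ± 0.147 CPM (SD, n = 3), to 35.4% (95% interval 26.1% to 48.2%) of WT (log2 fold change -1.50, adjusted p = 4.72e-04 from edgeR).

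Amotl2, which encodes an angiomotin that binds YAP and restrains it, had 303, 214 and 237 reads in PP2Ac KO and 505, 336 and 266 reads in WT. It spans 102716672 to 102733418 of chromosome 9 (forward strand). The groups overlapped in CPM, with 5.68 to 7.14 in PP2Ac KO and 6.35 to 10.2 in WT. The means were 6.43 ± 0.733 and 8.08 ± 1.93 CPM (SD, n = 3). The log2 fold change was -0.33 (95% interval -0.71 to 0.05, adjusted p = 0.155 from edgeR). With the replicate number as a block it was -0.32 and passed (adjusted p = 0.0124 from edgeR), and without WT replicate 3 it was -0.48 and passed as well (adjusted p = 0.0307 from edgeR). In the fit with the replicate block, 5 of the 7 genes were called lower and 0 higher, against 26.4% and 24.4% of all genes tested.

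Ankrd1, which encodes a nuclear ankyrin repeat protein known from heart and skeletal muscle, was near the floor. It spans 36111961 to 36120099 of chromosome 19 (reverse strand) and had 0, 1 and 1 reads in PP2Ac KO and 4, 1 and 5 reads in WT. The ratio of summed reads after scaling was 0.231 with an exact 95% counting interval of 0.0246 to 1.08, which includes 1. An exact permutation test of its CPM gave p = 0.3 (two-sided, 3 against 3). The gene is a canonical YAP target in other cells, and these libraries held too few of its reads to compare the genotypes.

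Levels were set on a common scale by dividing CPM by the exonic length of each gene. In WT, Ccn2 had 5.88 ± 1.20 CPM per kb, Ccn1 2.37 ± 0.566 and Amotl2 1.28 ± 0.308 (SD, n = 3), and the libraries of these neighbours in the order did not overlap. The coactivators and Tead1 followed about an order of magnitude lower, with Wwtr1 at 0.179 ± 0.0732, Yap1 at 0.164 ± 0.0620 and Tead1 at 0.145 ± 0.0279 CPM per kb. These 3 genes could not be ordered, as the libraries of neighbours overlapped. Tead3 came next at 0.0571 ± 0.0164, and Ankrd1, Tead2 and Tead4 were at 0.0257 CPM per kb or less. In PP2Ac KO, Ccn2 was again first at 1.92 ± 0.175 CPM per kb. Amotl2 at 1.02 ± 0.116 and Ccn1 at 0.836 ± 0.0729 overlapped there, and Wwtr1, at 0.0691 to 0.130 CPM per kb, lay apart from Tead1 at 0.0441 ± 0.00724 and Yap1 at 0.0390 ± 0.00345.

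Markers of other cells were then set beside these values, as fibroblasts and smooth muscle cells are known to express YAP, TEAD1 and the CCN genes. Of 10 fibroblast markers, 9 were tested, 8 fell and 0 rose, with a median log2 fold change of -1.76, beside 19.0% lower and 18.1% higher among all genes tested. Thy1, the marker that did not pass (log2 fold change -1.42, adjusted p = 0.0888 from edgeR), passed with the replicate block (adjusted p = 0.0369), which gave 9 lower beside 26.4% of all genes tested. Col1a1, a chain of type I collagen, had 362, 235 and 278 reads in PP2Ac KO and 1722, 1510 and 1120 reads in WT, with a log2 fold change of -2.10 (adjusted p = 3.90e-05 from edgeR). The sum of all 10 markers was 28.6 to 42.6 CPM in PP2Ac KO and 92.6 to 143 CPM in WT. The lowest WT sum was in replicate 3, where the CPM of Yap1, Wwtr1, Ccn1, Ccn2 and Amotl2 were also lowest within their group. Tead1 was lowest in WT replicate 2, and Tead3 was highest in WT replicate 3. The lowest PP2Ac KO sum was in replicate 3 as well, where Wwtr1 and Tead3 were highest and Ccn2 and Amotl2 lowest within their group. No fibroblast marker was at 0 in every library, and Lum had 0 to 6 reads. Of the smooth muscle markers, Acta2 and Tagln fell (log2 fold changes -1.97 and -2.03), and Myh11 and Cnn1 had at most 6 reads. The 4 epithelial markers had at most 7 reads each in a library, and Krt18 had 0 in every library. Of 5 endothelial markers, 3 were tested. Kdr and Cdh5 were higher and Vwf lower in PP2Ac KO, beside 18.1% and 19.0% of all genes tested. Tie1 had at most 13 reads in a library and Tek at most 4. The summed level of the 5 was 241 to 312 CPM in PP2Ac KO and 164 to 226 CPM in WT. Most of it came from Kdr (183 to 230 CPM in PP2Ac KO, 76.5 to 125 in WT) and Vwf (48.4 to 69.2 in PP2Ac KO, 83.4 to 99.3 in WT).

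Divided by the fibroblast marker sum of the same library, Yap1, Tead1 and Ccn2 overlapped between the genotypes. Because this sum itself fell in PP2Ac KO, any gene that fell about as much overlaps on this scale. The share of all genes tested that overlap on it was not computed, so no conclusion is drawn from the overlap. Per 1000 CPM of the markers, Ccn2 stood at 137 to 172 CPM in PP2Ac KO and at 136 to 140 CPM in WT. On this scale Yap1 stood at 7.74 to 12.6 in PP2Ac KO against 9.53 to 13.9 in WT, and Tead1 at 14.8 to 20.1 against 10.9 to 21.9. Wwtr1, at 7.74 to 21.8 against 5.15 to 8.87, and Tead3, at 1.66 to 14.3 against 2.14 to 5.41, overlapped too. Ccn1 did not overlap and was higher in PP2Ac KO, at 43.1 to 58.7 against 37.9 to 39.9. Amotl2 lay furthest apart, at 168 to 199 per 1000 marker CPM in PP2Ac KO and 53.9 to 77.2 in WT. A gene that falls less than the markers rises on this scale by arithmetic. This covers Amotl2 and Ccn1, whose log2 fold changes in CPM were -0.33 and -1.50, so neither value shows a rise of the gene itself. The part of fibroblasts or other such cells in the decreases of Yap1, Tead1, Ccn1 and Ccn2 was not tested.

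**Figure D2:**
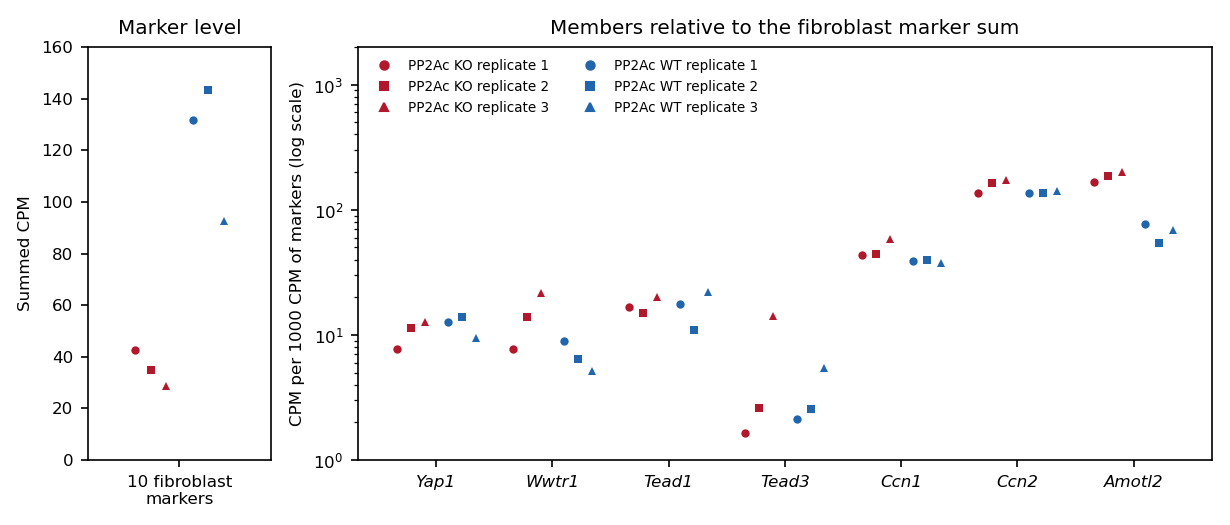
Summed CPM of 10 fibroblast markers in each library (left, linear scale) and the CPM of the 7 tested genes per 1000 CPM of these markers (right, log scale). Points are libraries. The marker sum lies at 28.6 to 42.6 in PP2Ac KO and at 92.6 to 143 in WT. Ccn2, Yap1 and Tead1 overlap once divided by it, and Amotl2 lies higher in PP2Ac KO, which follows from its small change.

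The genes closest in profile to Yap1, Ccn1 and Ccn2 were sought among all genes tested by the root mean square difference of mean-centred log2 CPM over the 6 libraries. For Yap1 they were Col3a1 (0.15), Thbs2 (0.19) and Tagln (0.19), where Col3a1 and Tagln are on the fibroblast and smooth muscle marker lists. For Ccn2 they were Bgn (0.07), Sned1 (0.08) and Fkbp10 (0.09), and for Ccn1 they were Tm4sf1 (0.08), Crip2 (0.10) and Fkbp10 (0.10). All of these genes had negative log2 fold changes, between -2.03 and -1.41. The measure follows the difference between the genotypes for the most part, and with 6 libraries it is given as a description.

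Further YAP/TAZ targets were taken from a published target score, of which 18 genes are not among the 10 (the list was written from general knowledge). Of these 18, 15 were tested, 8 fell, 3 rose and 4 did not pass (median log2 fold change -0.43), beside 19.0% lower and 18.1% higher among all genes tested. The largest changes were those of Rbms3 (log2 fold change -1.76, adjusted p = 0.00379), Axl (1.65, adjusted p = 6.16e-05), Arhgef17 (-1.61, adjusted p = 0.00284) and Nt5e (-1.55, adjusted p = 5.51e-05), all from edgeR. Rbms3, which encodes an RNA-binding protein, had 8, 8 and 7 reads in PP2Ac KO and 43, 30 and 19 in WT. It passed the filter on low counts only through its WT libraries. Nt5e, the gene of the ectonucleotidase CD73, had 153, 143 and 159 reads in PP2Ac KO and 581, 547 and 423 in WT. The libraries of the genotypes were well apart in both genes. Tgfb2, which did not pass the test, had 8, 6 and 8 reads in PP2Ac KO and 12, 20 and 16 in WT. Like Rbms3, it passed the filter through its WT libraries. The counts and the median of this list include Rbms3 and Tgfb2, which limits their comparison with all genes tested.

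Targets moved in both directions. Axl, which encodes a receptor tyrosine kinase of macrophages that binds Gas6, had the highest mean CPM of these targets in both groups. It rose from 238 ± 40.7 to 745 ± 80.8 CPM (SD, n = 3). In WT its libraries overlapped those of Myof, which was higher in replicate 3 (206 against 194 CPM). The other two that rose, named after their values were seen, were Crim1 (log2 fold change 0.73, from 28.9 ± 4.47 to 48.0 ± 3.63 CPM) and Nuak2 (0.27, from 79.1 ± 9.01 to 95.6 ± 7.22 CPM). With upper-quartile scaling Nuak2 did not pass (adjusted p = 0.0933 from edgeR). Myof at 193 CPM and Lats2 at 28.2 CPM in WT had log2 fold changes of -0.24 and -0.05 and did not pass, and neither did F3 at 1.53 CPM (-0.05). Myof passed with the replicate block (adjusted p = 5.44e-04 from edgeR) and with upper-quartile scaling (adjusted p = 0.0190). The 6 further targets that fell by more than 1 on the log2 scale at FDR under 0.01 had at most 25.9 CPM in WT, as did Yap1, Tead1, Ccn1 and Ccn2, whereas the other two that fell, Asap1 at 137 CPM and Dock5 at 40.5 CPM, had log2 fold changes of -0.43 and -0.38. These were grouped after their values were seen. With Axl included, the summed level of the 18 genes was higher in PP2Ac KO (1136 to 1308 CPM) than in WT (753 to 854 CPM), while the median change was negative. With the replicate block, 9 of the 15 fell and 3 rose, beside 26.4% and 24.4% of all genes tested.

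**Figure D3:**
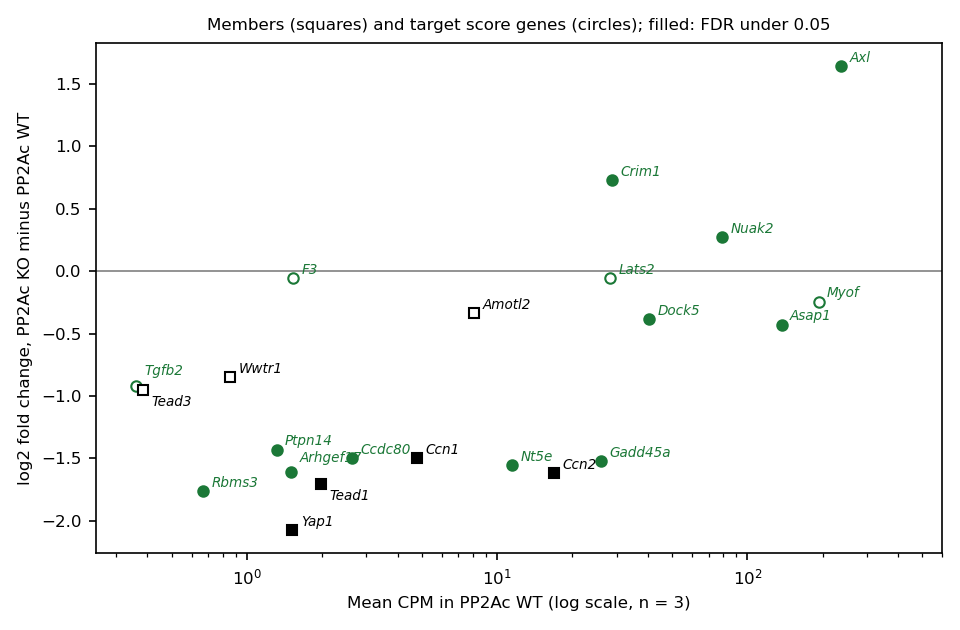
Log2 fold change between PP2Ac KO and WT against the mean CPM in WT (log scale, n = 3) for the 7 tested genes of the YAP, TAZ, TEAD and target group (squares) and 15 further targets (circles). Filled symbols passed at FDR under 0.05. Axl, at 238 CPM, lies highest, and the genes below -1 have at most 25.9 CPM.

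Genes that encode other partners of YAP and TEAD were counted from lists chosen by function. Of 5 proteins that bind and restrain YAP, 2 had lower mRNA and 0 higher, beside 19.0% and 18.1% of all genes tested. Amotl1, an angiomotin like Amotl2, fell most (log2 fold change -1.34, adjusted p = 0.00691 from edgeR), with 38, 34 and 23 reads in PP2Ac KO and 139, 82 and 62 in WT. Wwc2 fell by 0.63 on the log2 scale. Nf2, the gene of merlin, had 90.9 ± 2.48 CPM in PP2Ac KO against 92.3 ± 3.16 CPM in WT (SD, n = 3) and a log2 fold change of -0.02 (95% interval -0.15 to 0.11). Amot had a log2 fold change of -0.49 and did not pass (adjusted p = 0.0548 from edgeR), while it passed with the block (adjusted p = 0.00467) and with upper-quartile scaling (adjusted p = 0.0282).

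The Vgll proteins bind TEAD factors in place of YAP. Vgll4, an antagonist of YAP on TEAD, was by far the most abundant of the 4 and differed little, with 65.7 ± 6.13 CPM in PP2Ac KO and 62.5 ± 6.22 CPM in WT (SD, n = 3; log2 fold change 0.07, 95% interval -0.14 to 0.28). Vgll3 had 16, 16 and 31 reads in PP2Ac KO and 80, 50 and 41 in WT and fell (log2 fold change -1.22, adjusted p = 0.0115 from edgeR). Vgll1 had 1 read in 1 library and Vgll2 none. Of 4 relatives of Ccn1 and Ccn2, the 3 tested (Ccn3, Ccn4 and Ccn5) fell, with log2 fold changes of -1.44, -2.29 and -2.47, beside 19.0% lower among all genes tested. Ccn3 just passed (adjusted p = 0.0450 from edgeR, and 0.0511 with RLE scaling), and none of the 3 genes had more than 63 reads in a library. In PP2Ac KO they had 2 to 13 reads in a library, so they passed the filter on low counts through the WT libraries. Genes selected in this way are not comparable with the share over all genes tested.

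The Hippo kinase core acts upstream of YAP, and it leads to the phosphorylation of YAP and TAZ. Of its 7 genes, all tested, 4 were higher in PP2Ac KO and 0 lower, against 18.1% and 19.0% of all genes tested, with a median log2 fold change of 0.26. Sav1, the scaffold of the MST kinases, rose from 81.1 ± 9.23 to 129 ± 9.98 CPM (SD, n = 3; log2 fold change 0.67, adjusted p = 5.77e-04 from edgeR). Mob1a, a LATS cofactor, and Stk3, the gene of MST2, rose by log2 fold changes of 0.44 and 0.30. Lats1 rose by 0.26, and did not pass with upper-quartile scaling (adjusted p = 0.0747 from edgeR). Stk4, the gene of MST1, and Lats2 had log2 fold changes of 0.08 and -0.05 and did not pass. Mob1b, at 0.20 (adjusted p = 0.0663), passed with the block (adjusted p = 0.00216 from edgeR). Each core gene had at least 947 reads in every library, far more than the coactivators and TEADs.

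**Figure D4:**
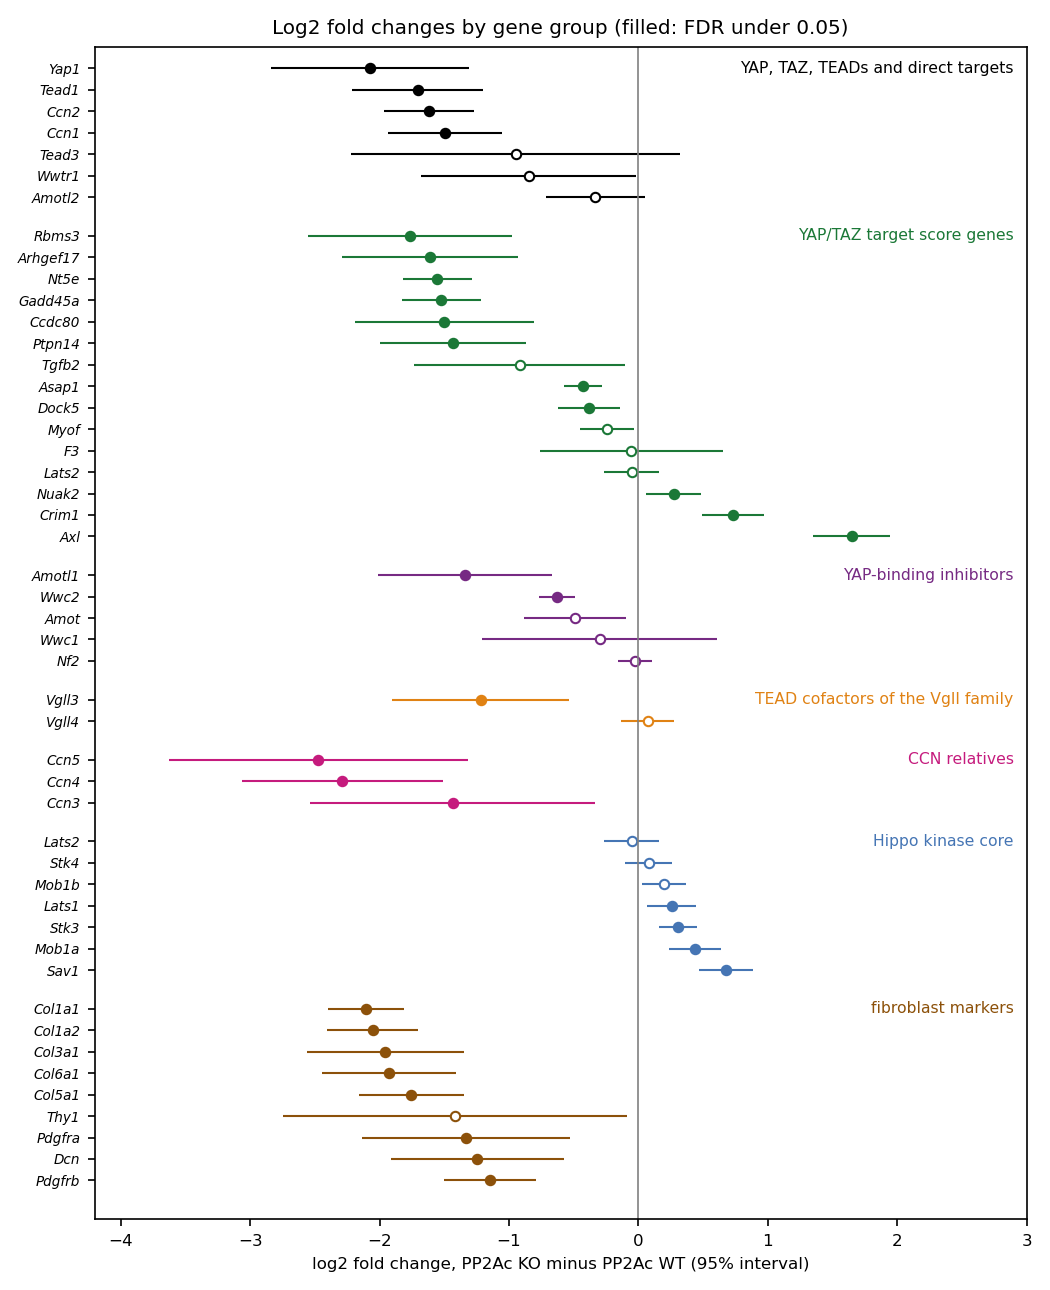
Log2 fold change between PP2Ac KO and WT with its 95% interval for each tested gene, grouped by function. Filled points passed at FDR under 0.05. The Hippo kinase core lies near or right of 0, and Yap1, Tead1, Ccn1 and Ccn2 lie between -2.08 and -1.50, in the range of the fibroblast markers (-2.10 to -1.14).

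How far counting could mix these genes with others was checked on the GENCODE M21 transcripts. Of all windows of 50 bases in the transcripts of each of the 10 genes, at most 0.548% (in Yap1) also occur in transcripts of another gene, and Tead3 and Tead4 share 10 windows. Annotated genes on the opposite strand overlap some part of the spans, introns included, of Yap1, Wwtr1, Tead1, Tead2, Tead4 and Ccn2. How much of each span they cover was not measured. Whether their exons overlap was not examined, and the strand setting of the counting is not given in the sources used here. Where exons overlap, reads of such partners could be added to the counts of these 6 genes, or shared reads left out. This would matter most for Tead2 and Tead4, where a few reads make up the whole value.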

How the data were processed

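RNA-Seq of 6 BMDM libraries was analysed. The authors deposited raw read counts per gene symbol on mm10 without normalization. The submitters' processing notes name fastp 0.20.0, STAR 2.7.1a, HTSeq 0.11.2, kallisto 0.46.1, edgeR 3.34.0 and limma 3.48.3 without roles, and the annotation release and strand setting are not given in the sources used here. Genotype and replicate number came from the sample titles, which the column names match.

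The counts were fitted with edgeR 4.0.16 (R 4.3.3). Genes with low counts were removed by filterByExpr (minimum count 10, minimum total 15), and the others were scaled by TMM and tested by glmQLFit and glmQLFTest for genotype, with Benjamini-Hochberg adjustment over 13680 genes. Genes were called at FDR under 0.05. Standard errors were taken from the F statistic, and 95% intervals from its t distribution. The fit was repeated with RLE or upper-quartile scaling, without a filter, with a minimum of 10 counts per library, with the replicate number as a block, without each library in turn, and by DESeq2 1.42.0 and limma-voom (limma 3.58.1). Same-numbered libraries of the genotypes deviated together from their group means (correlations across genes of 0.289, 0.148 and 0.337). All other pairs were below 0, which centring on the group means in part forces, so they add no separate support. The numbers may therefore pair the libraries. The main values come from the fit without the block and do not use this pairing, and blocked values are given where they change a call. The pairing comes from the titles only.

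The named genes were all 10 members and, on each list, at most 4 that passed with the largest change and up to 3 that did not with the most counts. Further genes (Crim1, Nuak2, Asap1, Dock5, Tgfb2 and Thy1) were named after their values were seen. One gene of the list of YAP-binding inhibitors is not reported here. The members and lists were chosen with earlier results of these data known. Levels relative to fibroblast markers were added as a description. Coordinates and lengths came from GENCODE M21 (GRCm38), and promoters from RefSeq (GRCm38.p6). The scripts were tested on simulated data.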

Additional observations from a re-analysis of the deposited data

How the results depend on the processing

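Yap1, Tead1, Ccn1 and Ccn2 were called lower under all 13 alternatives, and no log2 fold change of the 7 tested genes changed sign. Leaving out each library in turn gave log2 fold changes of -2.34 to -1.83 for Yap1, -1.85 to -1.57 for Tead1, -1.67 to -1.35 for Ccn1 and -1.77 to -1.50 for Ccn2. The range was -1.12 to -0.55 for Wwtr1, -2.21 to -0.53 for Tead3 and -0.48 to -0.13 for Amotl2. Wwtr1 and Amotl2 passed without WT replicate 3, and Tead3 without PP2Ac KO replicate 3. Without a filter on low counts, Wwtr1 (-0.85, adjusted p = 0.0351) and Amotl2 (-0.34, adjusted p = 0.0363) passed in edgeR, and the cause was not tested. In the fit with the replicate block Amotl2 passed at -0.32, and no other call among the 7 genes changed. The number of the 7 called lower was 4 to 6 when no library was left out, and 0 were called higher. Of the further targets, 7 to 9 were lower and 2 to 3 higher in these fits. Tead3 could not be tested with at least 10 counts in every library. Over all genes, the median log2 fold change was -0.09 with upper-quartile scaling and lay nearer to 0 in every other fit. No library held more than 87 reads of Yap1, Wwtr1 or Tead3. For Tead2 and Ankrd1, the counting intervals of the ratio between the genotypes include 1, and Tead4 was at or under the floor of 3 reads in every library.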
